A study of Mus musculus with 15 samples.

Results

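Cortical thymic epithelial cells (cTEC) were compared with epithelial cells of the lung across the whole transcriptome, using the 3 cTEC and the 3 lung libraries, 6 of the 15 in the series. Both groups came from male C57BL/6J mice aged 8 weeks, as did the medullary thymic (mTEC), skin and colon epithelial cells that fill the other 9 libraries. Cells were sorted by flow cytometry, and each library holds RNA from a pool of cells of 5 mice, so n = 3 pools per group and each SD is a spread among pools. The study as a whole asks why epithelia differ in their level of MHC class I. The library kits differed between the groups compared. For cTEC, as for mTEC and skin, the kit was KAPA RNA Stranded PolyA, and for lung, as for colon, it was KAPA RNA HyperPrep PolyA. No library of either tissue was made with the kit of the other, so that kit and tissue cannot be told apart in any value of cTEC against lung. For this reason the levels in mTEC and skin, which share the cTEC kit, and in colon, which shares the lung kit, are given beside the genes that matter most.

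Cortical thymic epithelium is a scaffold in which immature T cells are made and selected. It releases chemokines and cytokines for thymocyte entry and growth, cuts proteins with a proteasome and lysosomal proteases of its own, and shows the peptides on MHC class I and class II. The alveolus is lined by broad, flat type 1 cells that carry gas exchange and share a basement membrane with capillaries, and by cuboidal type 2 cells. Type 2 cells make surfactant, a film of phospholipid and protein that is stored in lamellar bodies, organelles related to lysosomes. Lipid synthesis, the lysosomal system, matrix, growth factors and immune receptors are therefore the areas described in turn.

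Reads assigned to genes numbered 14329113 to 17864005 per cTEC library and 38561052 to 41978665 per lung library. Levels are given as CPM, read counts brought to a common library size with TMM (trimmed mean of M values) factors, and a fold change is cTEC over lung on the log2 scale with its standard error. Correlations of log2 CPM ran from 0.961 to 0.981 among cTEC libraries, from 0.987 to 0.991 among lung libraries and from 0.762 to 0.800 between the groups. In bulk libraries such as these, fewer cells of a type and less RNA per cell cannot be told apart.

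Of 19107 genes tested, 5899 were higher and 5467 lower in cTEC at an adjusted p under 0.05 in edgeR's quasi-likelihood test, 30.9% and 28.6% of the genes tested and 59.5% together. The libraries of the groups did not overlap for 13631 genes, 71.3%. Over all genes the median log2 fold change was 0.10, and it was 0.19 with DESeq2 size factors and 0.29 with upper-quartile scaling. Among genes read at 10 or more reads on the lower side, the 12 largest changes in each direction include known thymic and alveolar genes. Prss16, Pax1, Ccl21a, Ache, Foxn1, Ubd, Fxyd2, Isl1, Mdga1, Wfikkn2, Tbata and Rps29 had log2 fold changes between 14.03 and 9.20. Cldn18, Sec14l3, Cyp2b10, Ndnf, Cavin2, Col4a3, Cxcl15, Sftpc, Ager, Akap5, Sftpb and Rtkn2 had log2 fold changes between -14.28 and -9.88. Leaving out 1 library moved some of these by over 1.5 times. The log2 fold change was 14.98 for Prss16, 12.66 for Pax1, 14.53 for Ccl21a and 11.53 for Ache without the third lung library, and 12.38 for Foxn1 and 13.45 for Ubd without the first. It was 13.24 for Prss16, 9.97 for Ache, 9.78 for Fxyd2 and -11.07 for Sftpc without the third cTEC library, and -13.47 for Cyp2b10 and -11.78 for Cavin2 without the first. Rps29, a ribosomal protein gene, is taken up with the kit comparison. Genes given below by a log2 fold change alone passed this test unless stated otherwise.

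The cTEC label was checked against markers of cortical thymic epithelium. Of 14 such genes tested, 12 were higher in cTEC and 0 were lower, with a median log2 fold change of 6.92, while Kitl and Enpep did not pass the test. This is 85.7% called, beside 59.5% of all genes. Psmb11, the proteasome subunit of the thymic cortex (chr14:54621433-54629556, plus strand in GENCODE M21 on GRCm38, as are the other gene positions), had 210.4, 193 and 593 CPM in the cTEC libraries, against 0, 0 and 0.0309 CPM in the lung libraries. The lung value rests on 1 read, and the ratio was 32336-fold (95% counting interval 5803 to 1277260.0). Prss16, a thymus-specific serine protease of the endosomal system, had 1685, 1313 and 4884 CPM in the cTEC libraries, against 0.0615, 0.0868 and 0.309 CPM in the lung libraries (log2 fold change 14.03 ± 0.81, adjusted p = 4.01e-09). Foxn1, the transcription factor that thymic epithelium depends on, had 152, 171 and 253 CPM in the cTEC libraries, against 0.277, 0.0289 and 0.0309 CPM in the lung libraries (log2 fold change 10.69 ± 0.50, adjusted p = 5.98e-10). No cTEC library overlapped a lung library in any of the 3. Ccl25, which draws thymocyte precursors, averaged 1121 ± 723 CPM in cTEC, against 5.87 ± 0.0559 CPM in lung (log2 fold change 7.57 ± 0.48, adjusted p = 1.10e-08), and Il7, their growth factor, 143 ± 12.5 CPM in cTEC, against 1.86 ± 0.36 CPM in lung (log2 fold change 6.27 ± 0.31, adjusted p = 9.97e-10). Dll4, the Notch ligand of the cortex, averaged 40.5 ± 29.8 CPM in cTEC, against 3.69 ± 0.856 CPM in lung (log2 fold change 3.45 ± 0.71, adjusted p = 7.85e-04). The third cTEC library stood above the others in this program. Its 14 cortical genes summed to 14338 CPM, against 5909 and 6402 CPM in the other cTEC libraries. Without it the log2 fold change was 13.24 for Prss16, 6.92 for Ccl25 and 2.69 for Dll4. Single lung libraries moved it too, to 14.98 for Prss16 without the third and 12.38 for Foxn1 without the first.

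The promoter of Psmb11 is shown as that of a defining gene of the thymic cortex. It covers 250 bases before to 50 bases after the start in RefSeq (GRCm38.p6, chr14:54625060-54625359, plus strand), and capitals mark GACGC or its complement GCGTC, letters known as the core of FOXN1 sites.
Psmb11: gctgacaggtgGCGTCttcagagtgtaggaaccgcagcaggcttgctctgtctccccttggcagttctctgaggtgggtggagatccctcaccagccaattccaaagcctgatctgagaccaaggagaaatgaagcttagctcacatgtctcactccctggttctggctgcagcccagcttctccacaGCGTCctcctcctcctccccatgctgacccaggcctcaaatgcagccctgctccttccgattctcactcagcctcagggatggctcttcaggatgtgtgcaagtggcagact
Of 11 cortical marker genes with such a window, 6 held GACGC on either strand in at least 1 window. These include Kitl and Enpep, which did not pass the test. Among the 9 higher genes with a window, 4 held the letters. Of all 32851 windows 8932 did, 27.2%, a share that counts windows and not genes.

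Lung epithelial genes were lower in cTEC without exception among the alveolar markers. All 18 type 2 and all 16 type 1 alveolar genes fell, with medians of -6.13 and -7.40, while 28.6% of all genes were lower. Sftpc, the surfactant protein that marks type 2 cells (chr14:70520949-70524081, minus strand), had 2.999, 3.34 and 8.79 CPM in the cTEC libraries, against 11111, 5352 and 4309 CPM in the lung libraries (log2 fold change -10.43 ± 1.31, adjusted p = 9.24e-06). Sftpb, the surfactant protein needed for the film, had 0.904, 0.947 and 1.46 CPM in the cTEC libraries, against 2009, 1045 and 794 CPM in the lung libraries (log2 fold change -10.18 ± 0.99, adjusted p = 6.82e-07). Lamp3, a membrane protein of lamellar bodies, had 0.0952, 0.0557 and 0.112 CPM in the cTEC libraries, against 309, 192 and 104 CPM in the lung libraries (log2 fold change -11.07 ± 0.90, adjusted p = 1.11e-07). In all 3 genes the first lung library was the highest and the third the lowest, and every cTEC library lay far below them. Without the first lung library the log2 fold change of Sftpc was -9.92. Without the third cTEC library it was -11.07.

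Type 1 genes were steadier among lung libraries. Ager, the receptor for advanced glycation end products that marks type 1 cells (chr17:34597862-34600936, plus strand), had 7.9, 11.9 and 12.4 CPM in the cTEC libraries, against 12639, 15365 and 15493 CPM in the lung libraries (log2 fold change -10.40 ± 0.47, adjusted p = 4.97e-10). Aqp5, a water channel of type 1 cells, had 4.71, 3.51 and 3.02 CPM in the cTEC libraries, against 1708, 1797 and 2002 CPM in the lung libraries (log2 fold change -8.93 ± 0.36, adjusted p = 1.91e-10). Hopx, a homeodomain cofactor of type 1 cells, averaged 5.75 ± 3.59 CPM in cTEC, against 4264 ± 591 CPM in lung (log2 fold change -9.53 ± 0.53, adjusted p = 2.79e-09). Nkx2-1, the transcription factor of lung epithelium, averaged 0.0559 ± 0.056 CPM in cTEC, against 357 ± 21.2 CPM in lung. It had 3 reads over the cTEC libraries, and the ratio of lung to cTEC was 6750.2-fold (95% counting interval 2309.6 to 32734). Airway genes were present in the lung libraries as well, and 11 of 14 tested were lower in cTEC, with 85.7% called beside 59.5% of all genes. Scgb1a1, the secretoglobin of club cells, averaged 4.66 ± 1.47 CPM in cTEC, against 3453 ± 1221 CPM in lung (log2 fold change -9.53 ± 1.02, adjusted p = 1.88e-06). The 1 airway gene that was higher in cTEC was Reg3g, an antimicrobial lectin, with 58.2 ± 26.5 CPM in cTEC, against 7.78 ± 5.995 CPM in lung (log2 fold change 2.91 ± 0.74, adjusted p = 0.0035). Without the first lung library its log2 fold change was 3.55.

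The lung libraries held transcripts of type 1, type 2 and airway cells. Summed levels of the 16 type 1 genes were 1798 to 2008 CPM in cTEC, against 52939 to 62114 CPM in lung, and those of the 18 type 2 genes 130.1 to 182 CPM in cTEC, against 13691 to 26802 CPM in lung. The 14 airway genes summed to 172 to 372 CPM in cTEC, against 10394 to 14590.4 CPM in lung. Measured per transcript length, in the authors' TPM, Ager was the most abundant nuclear protein-coding gene of the lung libraries at 15174 ± 2075 TPM, followed by Sftpc at 13040 ± 6620 TPM and Scgb1a1 at 12044 ± 3921 TPM. In cTEC the leading genes were Cd74 at 13746 ± 2073 TPM, Ccl21a at 10436 ± 2944 TPM and B2m at 6838 ± 564 TPM.

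**Figure D1:**
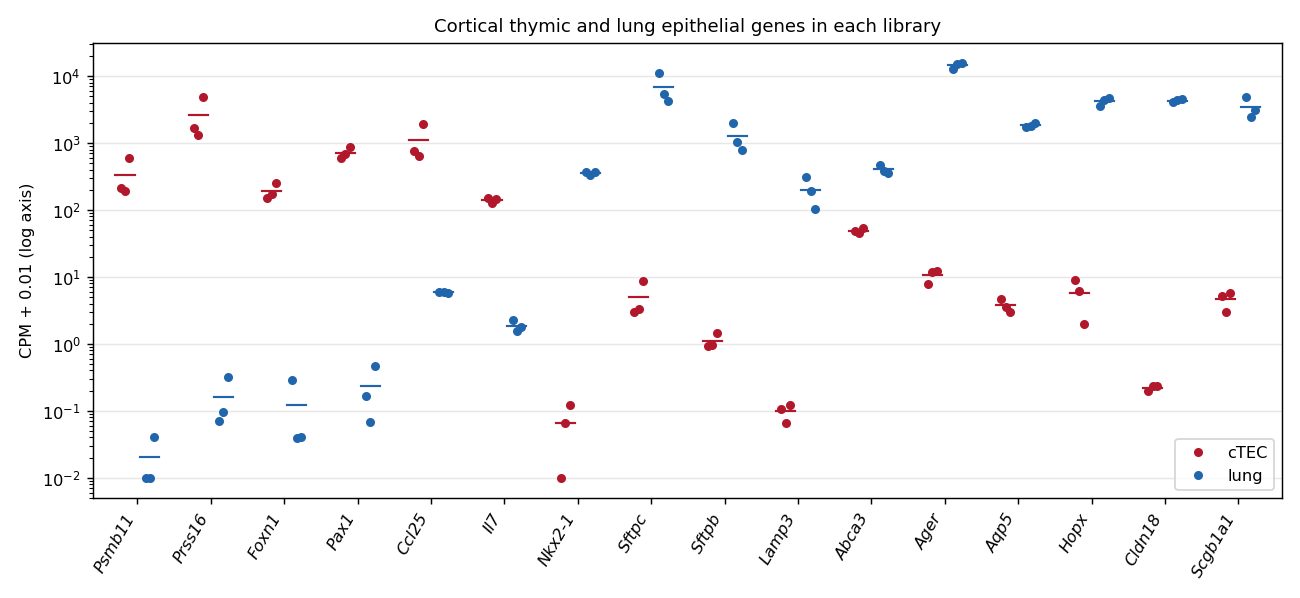
CPM of cortical thymic genes (left) and lung epithelial genes (right) in each library, on a log axis with 0.01 added. Points are single libraries, lines are means of 3, and cTEC stands left of lung for each gene. The 2 groups do not overlap for any gene shown.

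The promoter of Sftpb is given beside these values as that of a surfactant gene with 2 matches (GRCm38.p6, chr6:72304360-72304659, plus strand). Capitals mark CTCAAG or its complement CTTGAG, letters known as the core of NKX2-1 sites.
Sftpb: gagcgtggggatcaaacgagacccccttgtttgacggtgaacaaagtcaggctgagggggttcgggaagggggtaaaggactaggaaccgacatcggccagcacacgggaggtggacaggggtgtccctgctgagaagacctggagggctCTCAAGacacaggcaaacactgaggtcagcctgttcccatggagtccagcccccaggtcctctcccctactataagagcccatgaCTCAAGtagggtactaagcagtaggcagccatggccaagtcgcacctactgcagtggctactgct
Of 28 alveolar genes with a window, 8 held these letters on either strand in at least 1 window, among them Sftpb, Sftpa1 and Hopx. Of all 32851 windows 5224 did, 15.9%, a share that again counts windows and not genes.

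Transcription factors of the lineages parted in the same way. Of 20 tested, 10 were higher and 9 lower in cTEC, 95% called beside 59.5% of all genes. Pax1, Pax9, Eya1 and Hoxa3, which act in the pharyngeal pouch from which the thymus grows, had log2 fold changes of 11.62, 4.53, 3.44 and 4.42. Trp63, the factor of stratified epithelium, averaged 374 ± 40.2 CPM in cTEC, against 27.7 ± 27.1 CPM in lung (log2 fold change 3.75 ± 0.58, adjusted p = 6.70e-05), and Sox9 234 ± 65.5 CPM in cTEC, against 6.66 ± 2.96 CPM in lung (log2 fold change 5.14 ± 0.40, adjusted p = 7.26e-08). Gata6, Foxa1, Foxa2 and Sox2, factors of foregut and lung epithelium, had log2 fold changes of -7.95, -4.94, -8.33 and -5.89. General epithelial genes were read in both groups, and Epcam averaged 389.7 ± 77.2 CPM in cTEC, against 186 ± 18.3 CPM in lung and Cdh1, E-cadherin, 522 ± 38.5 CPM in cTEC, against 1431 ± 33.2 CPM in lung. The first lung library had the highest Trp63 of its group, and without it the log2 fold change was 4.86 for Trp63 and 5.24 for Pax9. That of Pax1 was 12.66 without the third lung library, that of Foxa2 -9.06 without the first and that of Gata6 -8.69 without the second cTEC library.

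Markers of other cells differed between the groups and bear on the lists that follow. Beside 59.5% of all genes, the shares called were 85% for thymocyte, 100% for medullary and 91.7% for endothelial genes. They were 83.3% for fibroblast, 45.5% for myeloid and 42.9% for B cell genes. Thymocyte and T cell genes summed to 186 to 262 CPM in cTEC, against 13.7 to 17.5 CPM in lung, and 17 of 20 tested were higher in cTEC, among them Cd8a with 17.4 CPM in cTEC and 0.113 CPM in lung. Medullary and tuft cell genes summed to 2335 to 4507 CPM in cTEC, against 22.1 to 243 CPM in lung, and all 14 were higher in cTEC. These included Ccl21a with 849.5 CPM in cTEC and 0.288 CPM in lung and Aire, the regulator of tissue antigens, with 44.3 CPM in cTEC and 0.0205 CPM in lung. Their mTEC levels were 1743 CPM for Ccl21a and 481 CPM for Aire. Aire had 2 reads over the lung libraries, and the ratio of cTEC to lung was 2185-fold (95% counting interval 604 to 18053). Endothelial genes summed to 22.5 to 27.8 CPM in cTEC, against 378 to 549 CPM in lung, and 11 of 12 tested were lower in cTEC. Fibroblast and mesenchymal genes summed to 365 to 708 CPM in cTEC, against 1267 to 1560.0 CPM in lung, and 9 of 12 tested were lower in cTEC. Of the 22 myeloid genes tested 6 were higher and 4 lower, and the sum was 67.3 to 93.3 CPM in cTEC, against 705 to 761 CPM in lung, in lung mostly Csf1r and Lyz1. The macrophage genes Adgre1, Marco and Siglecf averaged under 1 CPM in both groups, while Chil3, another macrophage gene, had a log2 fold change of -2.35. Mesothelial genes summed to 19.99 to 42.9 CPM in cTEC, against 61.7 to 109.8 CPM in lung, erythroid genes to 0.336 to 1.52 CPM in cTEC, against 8.39 to 13.4 CPM in lung and B cell genes to 28.7 to 92.96 CPM in cTEC, against 3.25 to 5.84 CPM in lung. Of 7 B cell genes tested, Ighm and Jchain were higher in cTEC and Cd22 lower, and the call of Cd22 was lost without the second or the third library of either group. Cd22 had 3 reads over the cTEC libraries, and the ratio of lung to cTEC was 8.57-fold (95% counting interval 2.75 to 43.1). The part of any of these cells in the lists below was not tested.

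**Figure D2:**
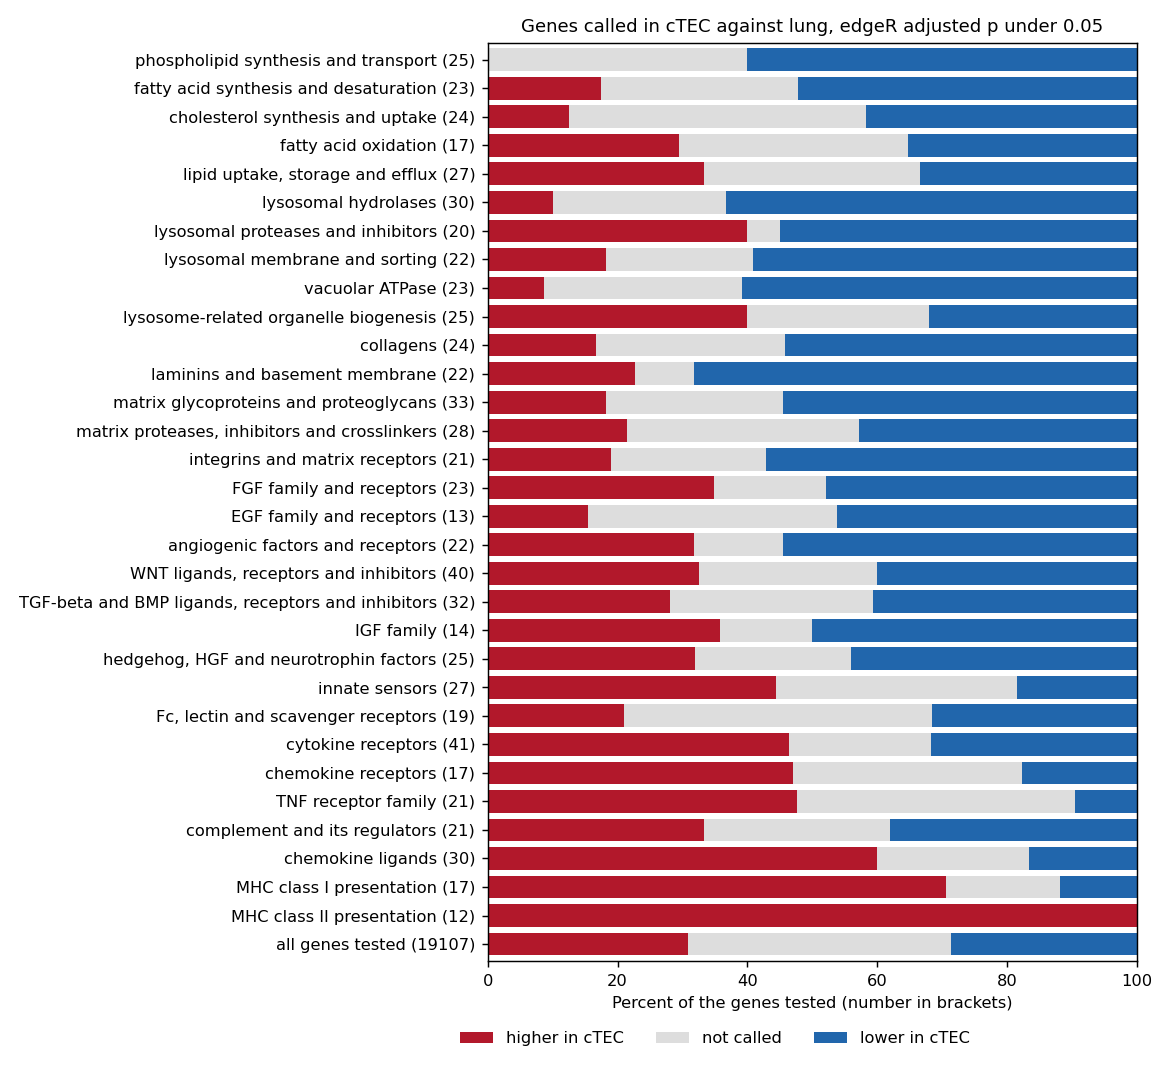
Share of the tested genes of each list that were higher in cTEC (left, red), not called (grey) or lower in cTEC (right, blue). The last bar gives all 19107 genes tested, with 30.9% higher and 28.6% lower. MHC class II presentation has 12 of 12 genes higher, and phospholipid synthesis has 15 of 25 lower and 0 higher.

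The phospholipid genes that passed the test were lower in cTEC. Of 25 genes tested for phospholipid synthesis and transport, 15 were lower and 0 higher, 60% called beside 59.5% of all genes, of which 28.6% were lower. The list had a median log2 fold change of -1.52, against 0.10 over all genes. Abca3, the pump that loads phospholipid into lamellar bodies, had 48.6, 45.1 and 54.1 CPM in the cTEC libraries, against 472, 387 and 363 CPM in the lung libraries (log2 fold change -3.05 ± 0.18, adjusted p = 3.82e-09). Lpin2, a phosphatidate phosphatase, had 27.1, 25.8 and 29.2 CPM in the cTEC libraries, against 601, 605 and 593 CPM in the lung libraries (log2 fold change -4.45 ± 0.24, adjusted p = 2.40e-09). Pcyt1a, the rate-limiting enzyme of phosphatidylcholine synthesis, had 40.7, 35.99 and 36.5 CPM in the cTEC libraries, against 294, 303 and 293 CPM in the lung libraries (log2 fold change -2.97 ± 0.15, adjusted p = 1.07e-09). The libraries of a group lay close together, and the groups did not overlap for any of these genes. Chka and Chpt1, enzymes at the start and the end of the same route, had log2 fold changes of -2.60 and -3.33, and Lpcat1, which remodels phosphatidylcholine, had a log2 fold change of -3.31. Prdx6, a peroxiredoxin with phospholipase activity in lamellar bodies, averaged 283 ± 49.2 CPM in cTEC, against 4292 ± 318 CPM in lung (log2 fold change -3.93 ± 0.30, adjusted p = 6.59e-08). The related enzymes Pcyt2, of phosphatidylethanolamine synthesis, and Chkb did not pass the test. Pcyt2 averaged 40.4 CPM in cTEC and 38.4 CPM in lung, and Chkb 70.2 CPM in cTEC and 61.97 CPM in lung. With an offset for gene length 1 gene of the list was called higher.

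Abca3 was not as restricted as the surfactant proteins. It averaged 53.1 CPM in mTEC, 46.2 CPM in skin and 122 CPM in colon. Lpin2 averaged 21.99 CPM in mTEC, 10.5 CPM in skin and 58.5 CPM in colon, and Pcyt1a 36.2 CPM in mTEC, 68.3 CPM in skin and 83.7 CPM in colon. For all 3 genes each of the 9 libraries made with the cTEC kit lay below each of the 6 made with the lung kit, and lung was above colon.

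Fatty acid synthesis genes went both ways. Of 23 genes tested 12 were lower and 4 higher, 69.6% called beside 59.5% of all genes, with a median of -0.80. Fasn, the synthase that builds palmitate, had 179, 176 and 275 CPM in the cTEC libraries, against 366, 244 and 179.7 CPM in the lung libraries. These ranges overlapped, and the difference did not pass the test (log2 fold change -0.33 ± 0.24, adjusted p = 0.264). The desaturases were far apart. Scd1 had 42.2, 30.5 and 32.4 CPM in the cTEC libraries, against 1013, 663 and 431 CPM in the lung libraries (log2 fold change -4.32 ± 0.35, adjusted p = 1.04e-07), and Scd2 (chr19:44293674-44306864, plus strand) had 281, 263 and 290.5 CPM in the cTEC libraries, against 4082, 4866 and 4448 CPM in the lung libraries (log2 fold change -4.01 ± 0.43, adjusted p = 1.78e-06). Elovl1 and Elovl5, elongases of saturated and of polyunsaturated chains, had log2 fold changes of -2.60 and -3.37. Acsl5, which activates fatty acids with coenzyme A, averaged 70.5 ± 3.16 CPM in cTEC, against 423 ± 11.6 CPM in lung (log2 fold change -2.58 ± 0.18, adjusted p = 2.57e-08). The 4 genes that were higher in cTEC were Elovl6, Srebf1, Mlxipl and Slc25a1. Elovl6, which extends palmitate to stearate, had 34.8, 37.8 and 31.9 CPM in the cTEC libraries, against 5.97, 2.6 and 3.99 CPM in the lung libraries (log2 fold change 3.06 ± 0.42, adjusted p = 2.37e-05). Srebf1, the regulator of fatty acid synthesis, had 222, 261 and 303 CPM in the cTEC libraries, against 114, 95.6 and 92.6 CPM in the lung libraries (log2 fold change 1.38 ± 0.20, adjusted p = 4.14e-05). Elovl6 averaged 28.7 CPM in mTEC, 127 CPM in skin and 70.4 CPM in colon, so lung was the lowest of the 5 groups for this elongase, while Scd2 averaged 279 CPM in mTEC, 84.8 CPM in skin and 1124 CPM in colon. The call of Slc25a1 was lost with an offset for gene length (adjusted p = 0.0678) and when any library but the first of cTEC was left out (adjusted p from 0.0503 to 0.0711).

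Cholesterol genes differed by small amounts. Of 24 tested 10 were lower and 3 higher, 54.2% called beside 59.5% of all genes. The median was -0.32, and 21 of the 24 lay within a 2-fold change. Ebp, a sterol isomerase, and Stard4, a sterol carrier, were among the lower, with log2 fold changes of -2.33 and -2.89. The genes that were higher were Sqle, Sc5d and Tm7sf2, also enzymes of cholesterol synthesis, with log2 fold changes of 0.55, 0.83 and 0.95. The call of Sqle was lost when the first or the third cTEC library or the second or the third lung library was left out, with adjusted p between 0.0523 and 0.117. With an offset for gene length 6 genes were lower.

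Fatty acid oxidation showed no common direction. Of 17 genes tested 5 were higher and 6 lower, all 6 by less than a 2-fold change, with 64.7% called beside 59.5% of all genes. The median of 0.08 turned negative with expected counts and with an offset for gene length. Cpt1a, the carnitine transferase that lets fatty acids into mitochondria, averaged 270.0 ± 85.3 CPM in cTEC, against 98.98 ± 19.2 CPM in lung (log2 fold change 1.45 ± 0.29, adjusted p = 6.69e-04). Etfa and Hadh had log2 fold changes of 1.05 and 0.93, and the dehydrogenases Acadl and Acadm had log2 fold changes of -0.64 and -0.54. Hadhb had a log2 fold change of 1.19 from uniquely placed reads but 0.25 from expected counts, where it did not pass the test (adjusted p = 0.0903, and between 1.23e-18 and 0.0903 over all alternatives).

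Genes of lipid uptake, storage and efflux went both ways, 9 higher and 9 lower of 27, 66.7% called beside 59.5% of all genes. Apoe, the apolipoprotein of cholesterol transport between cells, had 2424, 3280.0 and 1761 CPM in the cTEC libraries, against 228, 157 and 178 CPM in the lung libraries (log2 fold change 3.73 ± 0.29, adjusted p = 7.70e-08). Fabp5, a fatty acid carrier, had 438, 419 and 722 CPM in the cTEC libraries, against 53.8, 27.2 and 29.1 CPM in the lung libraries (log2 fold change 3.84 ± 0.36, adjusted p = 5.16e-07). Both stood higher in every cTEC library, and Abcg1, a cholesterol exporter, had a log2 fold change of 2.55. Mgll, the lipase of monoglycerides, averaged 629 ± 82.5 CPM in cTEC, against 225 ± 30.7 CPM in lung (log2 fold change 1.48 ± 0.42, adjusted p = 0.0072). On the other side Cd36, the fatty acid translocase, had 0.333, 0.334 and 1.34 CPM in the cTEC libraries, against 182, 149.8 and 110.1 CPM in the lung libraries (log2 fold change -7.79 ± 0.66, adjusted p = 1.76e-07), and its log2 fold change was -8.74 without the third cTEC library. Pparg, a nuclear receptor of lipid storage, averaged 0.376 ± 0.177 CPM in cTEC, against 4.71 ± 0.695 CPM in lung (log2 fold change -3.60 ± 0.70, adjusted p = 4.54e-04), and Plin2, the coat protein of lipid droplets, 24.4 ± 2.82 CPM in cTEC, against 79.4 ± 3.41 CPM in lung (log2 fold change -1.70 ± 0.24, adjusted p = 2.32e-05). Cd36 is also made by endothelial cells, whose 12 markers summed to 22.5 to 27.8 CPM in cTEC, against 378 to 549 CPM in lung. Apoe averaged 1153 CPM in mTEC, 4452 CPM in skin and 11.6 CPM in colon, so skin was above cTEC.

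**Figure D3:**
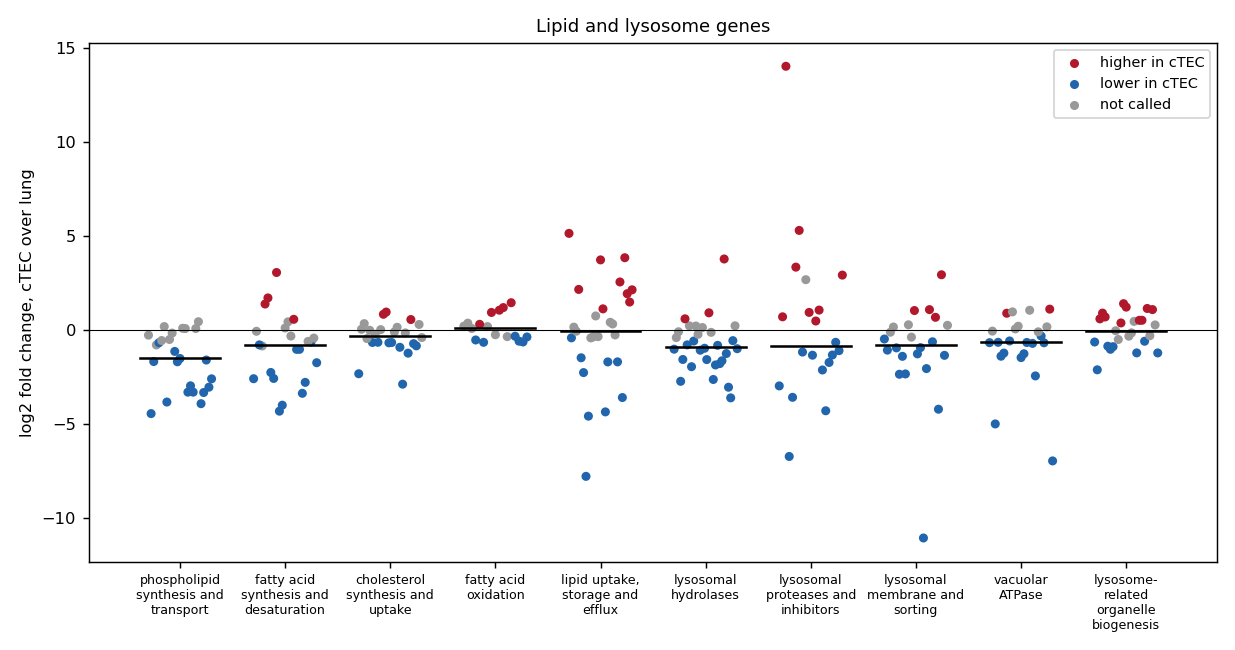
Log2 fold change of every tested gene of the lipid and lysosome lists, cTEC over lung, with the list median as a black line. Red points were higher in cTEC, blue points lower and grey points not called. Phospholipid genes have the lowest median, -1.52, and the proteases hold both Prss16 at 14.03 and Napsa at -6.73.

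Lysosomal hydrolases were mostly lower in cTEC. Of 30 tested 19 were lower and 3 higher, 73.3% called beside 59.5% of all genes. The median was -0.90, and 13 of the 19 were lower by more than a 2-fold change. Ids, which removes sulfate from dermatan and heparan sulfate, had 49.6, 41.7 and 47.3 CPM in the cTEC libraries, against 531, 598 and 571 CPM in the lung libraries (log2 fold change -3.62 ± 0.17, adjusted p = 5.40e-10). Asah1, the acid ceramidase, had 103, 85.5 and 96.5 CPM in the cTEC libraries, against 709.6, 842 and 805 CPM in the lung libraries (log2 fold change -3.05 ± 0.15, adjusted p = 1.17e-09). Sgsh, another sulfatase of heparan sulfate, averaged 10.2 ± 1.4 CPM in cTEC, against 63.7 ± 3.93 CPM in lung (log2 fold change -2.64 ± 0.21, adjusted p = 8.49e-08). Lipa, the acid lipase of cholesteryl esters, and Smpd1, the acid sphingomyelinase, had log2 fold changes of -2.74 and -1.86. Psap, the precursor of the saposins, with 959 CPM in cTEC and 878 CPM in lung, and Gaa, the acid glucosidase, with 248 CPM in cTEC and 213 CPM in lung, did not pass the test.

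Hexa, a hexosaminidase subunit, was lower, with 54.2 CPM in cTEC and 107 CPM in lung (log2 fold change -0.98 ± 0.33, adjusted p = 0.0196). Hgsnat and Gusb were higher by less than a 2-fold change, with log2 fold changes of 0.91 and 0.59. The call of Gusb was lost without the first cTEC library or without the second or the third lung library, with adjusted p from 0.052 to 0.076. That of Hexa was lost without the first cTEC library (adjusted p = 0.0637) and with upper-quartile scaling (adjusted p = 0.0553).

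Proteases of the lysosome were divided between the tissues. Of 20 proteases and inhibitors tested 8 were higher and 11 lower, a call rate above the 59.5% of all genes. Ctsl, the cathepsin that cuts the invariant chain in cortical epithelium (chr13:64359337-64370890, minus strand), had 3911, 3699 and 5543 CPM in the cTEC libraries, against 425, 418 and 455 CPM in the lung libraries (log2 fold change 3.34 ± 0.22, adjusted p = 1.60e-08). It averaged 1802 CPM in mTEC, 166 CPM in skin and 107 CPM in colon, so both thymic groups were above the other 3. Cstb, an inhibitor of such cathepsins, averaged 515 ± 105 CPM in cTEC, against 68.1 ± 4.74 CPM in lung (log2 fold change 2.92 ± 0.18, adjusted p = 1.01e-08), and Ifi30, the lysosomal thiol reductase of antigen processing, 84.8 ± 7.41 CPM in cTEC, against 40.8 ± 5.91 CPM in lung (log2 fold change 1.06 ± 0.19, adjusted p = 3.07e-04). Ctss, the cathepsin of antigen-presenting cells, averaged 17.3 ± 6.31 CPM in cTEC, against 9.08 ± 4.63 CPM in lung (log2 fold change 0.93 ± 0.36, adjusted p = 0.0383). Its call was lost without the first or the third cTEC library or the first or second lung library, with 6 libraries in the fit and with an offset for gene length (adjusted p from 0.0691 to 0.152). On the lung side stood the proteases that process surfactant proteins. Ctsh had 27.1, 16.4 and 20.8 CPM in the cTEC libraries, against 456, 399.7 and 417 CPM in the lung libraries (log2 fold change -4.30 ± 0.27, adjusted p = 8.79e-09), and Napsa had 1.999, 1.45 and 1.23 CPM in the cTEC libraries, against 264, 135 and 105 CPM in the lung libraries (log2 fold change -6.73 ± 0.49, adjusted p = 3.93e-08). Lgmn, an asparaginyl endopeptidase, averaged 33.6 ± 4.11 CPM in cTEC, against 265 ± 26.8 CPM in lung (log2 fold change -2.98 ± 0.24, adjusted p = 9.61e-08), and Ctsb, Ctsc and Tpp1 had log2 fold changes of -1.34, -2.13 and -1.73. Summed levels of the whole list were 6998 to 12231 CPM in cTEC, against 3314 to 3432 CPM in lung, in cTEC carried by Ctsl and Prss16. Without the first lung library 5 genes of the list were called higher.

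Membrane, sorting and acidification genes leaned the same way as the hydrolases. Of 22 membrane and sorting genes tested 13 were lower and 4 higher, with a median of -0.79. Of 23 subunits and assembly factors of the vacuolar ATPase 14 were lower and 2 higher, with a median of -0.66. Their call rates were 77.3% and 69.6%, beside 59.5% of all genes. Sort1, the receptor that carries hydrolases from the Golgi, had 62.5, 49.5 and 66.97 CPM in the cTEC libraries, against 1114, 1183 and 1039.9 CPM in the lung libraries (log2 fold change -4.22 ± 0.20, adjusted p = 7.03e-10). Igf2r, the large mannose 6-phosphate receptor, averaged 57.4 ± 2.12 CPM in cTEC, against 291 ± 31.1 CPM in lung (log2 fold change -2.34 ± 0.23, adjusted p = 6.64e-07), and Npc1, the cholesterol transporter of the lysosomal membrane, 60.8 ± 4.22 CPM in cTEC, against 253 ± 10.6 CPM in lung (log2 fold change -2.06 ± 0.12, adjusted p = 3.94e-09). Lamp1, the main membrane glycoprotein, averaged 468 ± 18.6 CPM in cTEC, against 1195 ± 76.8 CPM in lung (log2 fold change -1.35 ± 0.14, adjusted p = 1.20e-06), while Lamp2 with 449 CPM in cTEC and 586 CPM in lung did not pass the test. The higher members were Laptm5, Tmem192, Cd63 and Cd68. The call of Cd68, with a log2 fold change of 0.67, was lost with expected counts, with an offset for gene length, without the third cTEC library and without the first lung library (adjusted p from 0.052 to 0.124, and between 5.90e-05 and 1 over all alternatives). Laptm5, known from blood cells, averaged 52.1 ± 13.4 CPM in cTEC, against 6.8 ± 3.85 CPM in lung (log2 fold change 2.94 ± 0.41, adjusted p = 2.48e-05), beside a summed thymocyte level of 186 to 262 CPM in cTEC, against 13.7 to 17.5 CPM in lung. Atp6v1a, the catalytic subunit of the pump, had 106, 86.5 and 96.6 CPM in the cTEC libraries, against 227, 238 and 233 CPM in the lung libraries (log2 fold change -1.27 ± 0.13, adjusted p = 1.49e-06). The subunit variants Atp6v0d2 and Atp6v1c2 were the most different, with 0.0503 CPM in cTEC and 7.27 CPM in lung for Atp6v0d2 and 1.51 CPM in cTEC and 49.1 CPM in lung for Atp6v1c2. Atp6v0d2 had 3 reads over the cTEC libraries, and the ratio of lung to cTEC was 138-fold (95% counting interval 47.0 to 670). Tcirg1 and Atp6v0c were higher, with log2 fold changes of 1.11 and 0.89, but Atp6v0c had 0.09 from expected counts and was then not called (adjusted p = 0.648, and between 6.58e-14 and 0.855 over all alternatives).

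Genes that build lysosome-related organelles, the class to which lamellar bodies belong, showed no common direction. Of 25 tested 10 were higher and 8 lower, 72% called beside 59.5% of all genes. The median of -0.04 turned positive with DESeq2 size factors, upper-quartile scaling and an offset for gene length. Lyst, a regulator of organelle size, averaged 10.6 ± 2.87 CPM in cTEC, against 46.3 ± 6.07 CPM in lung (log2 fold change -2.12 ± 0.27, adjusted p = 9.13e-06), and the AP-3 adaptor subunits Ap3b1 and Ap3m1 had log2 fold changes of -0.87 and -1.22. Hps1, Bloc1s2 and Vps33b, members of complexes of the same route, had log2 fold changes of 1.08, 1.14 and 0.90. The count of higher genes was 6 without the second cTEC library or the second lung library and 5 without the third lung library. Tfeb, the regulator of lysosomal genes, averaged 14.03 ± 1.49 CPM in cTEC, against 21.3 ± 0.938 CPM in lung (log2 fold change -0.60 ± 0.22, adjusted p = 0.026), and its relative Tfe3 86.4 ± 9.59 CPM in cTEC, against 66.8 ± 3.37 CPM in lung (log2 fold change 0.37 ± 0.13, adjusted p = 0.0206). The call of Tfeb was lost under 4 scalings, filters or thinnings and without the first cTEC or the first or second lung library (adjusted p from 0.051 to 0.115). That of Tfe3 was lost without the second cTEC library or the first or the third lung library (adjusted p from 0.0754 to 0.123).

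Promoters of 2 lower genes of the lysosomal system are shown because they carry the letters TCACGTGA, the core of the CLEAR element that TFEB and its relatives are known to bind. The letters read the same on both strands and contain the E-box CACGTG. The windows are those of RefSeq on GRCm38.p6, Igf2r at chr17:12769657-12769956, minus strand and Atp6v1a at chr16:44139210-44139509, minus strand, and capitals mark each match.
Igf2r: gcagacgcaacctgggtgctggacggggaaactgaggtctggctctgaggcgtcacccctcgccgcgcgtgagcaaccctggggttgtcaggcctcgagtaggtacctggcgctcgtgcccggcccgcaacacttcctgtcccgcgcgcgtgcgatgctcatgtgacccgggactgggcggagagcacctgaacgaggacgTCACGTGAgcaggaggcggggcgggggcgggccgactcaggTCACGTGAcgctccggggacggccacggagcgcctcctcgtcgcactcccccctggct
Atp6v1a: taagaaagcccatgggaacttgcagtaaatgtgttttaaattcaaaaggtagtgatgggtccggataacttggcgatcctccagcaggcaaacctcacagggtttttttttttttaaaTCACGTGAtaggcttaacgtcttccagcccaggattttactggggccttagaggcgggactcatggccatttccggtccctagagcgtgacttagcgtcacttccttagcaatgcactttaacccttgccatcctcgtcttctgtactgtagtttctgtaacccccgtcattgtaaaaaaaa
Of 95 different genes in the hydrolase, protease, membrane and ATPase lists, 71 had a window. In 11 of these genes, 15.5%, at least 1 window held the letters. Of all 32851 windows 320 held them, 0.974%. This last share counts windows and not genes, and a gene with several windows has more chances to hold a match. Among the genes with a window, 6 of 40 lower genes and 1 of 12 higher genes held them.

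Most basement membrane genes were lower in cTEC. Collagen IV is the network of every basement membrane, and its α3, α4 and α5 chains form the tougher network of the alveolar and kidney barrier. Of 24 collagens tested 13 were lower and 4 higher in cTEC, 70.8% called beside 59.5% of all genes. All 6 collagen IV genes were among the lower. Col4a3 (chr1:82586921-82722059, plus strand) had 1.71, 1.78 and 1.74 CPM in the cTEC libraries, against 2917, 3391 and 2806 CPM in the lung libraries (log2 fold change -10.76 ± 0.44, adjusted p = 1.91e-10). Col4a4 had 6.95, 4.9 and 3.75 CPM in the cTEC libraries, against 1625, 1851 and 1546 CPM in the lung libraries (log2 fold change -8.32 ± 0.45, adjusted p = 2.47e-09), and Col4a5 had 59.5, 48.7 and 63.6 CPM in the cTEC libraries, against 1058, 1182 and 973 CPM in the lung libraries (log2 fold change -4.22 ± 0.28, adjusted p = 1.72e-08). The common chains Col4a1 and Col4a2 differed less, with log2 fold changes of -2.24 and -3.10. For Col4a3 the levels elsewhere were 1.1 CPM in mTEC, 0.786 CPM in skin and 0.402 CPM in colon, so that lung stood alone among the 5 groups. Collagen I genes were also lower in cTEC, Col1a1 with 8.21 CPM in cTEC and 195 CPM in lung, beside fibroblast markers that summed to 365 to 708 CPM in cTEC, against 1267 to 1560.0 CPM in lung.

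Of 22 laminin and basement membrane genes tested 15 were lower and 5 higher, with a median of -2.26 and a call rate above that of all genes. Lama3 and Lamb3, chains of the laminin that anchors epithelia, had log2 fold changes of -2.48 and -1.06. Lamb2 had 38.99, 38.2 and 20.9 CPM in the cTEC libraries, against 513, 536 and 481 CPM in the lung libraries (log2 fold change -3.96 ± 0.26, adjusted p = 1.72e-08), whereas Lamb1 had 420.2, 348 and 424 CPM in the cTEC libraries, against 81.3, 104 and 86.4 CPM in the lung libraries (log2 fold change 2.13 ± 0.58, adjusted p = 0.00531). These β chains took opposite directions. Npnt, the nephronectin that binds integrin α8, averaged 72.8 ± 19.1 CPM in cTEC, against 1434 ± 98.9 CPM in lung (log2 fold change -4.30 ± 0.22, adjusted p = 1.59e-09), and Sparc, a collagen-binding protein, 466 ± 92.2 CPM in cTEC, against 7525 ± 850.4 CPM in lung (log2 fold change -4.01 ± 0.37, adjusted p = 4.22e-07). The genes that were higher beside Lamb1 were Lama1, Nid2, Fras1 and Frem2, the last 2 being parts of a complex below embryonic epithelia, with log2 fold changes of 2.37, 2.45, 2.05 and 2.66. The log2 fold change of Lama1 was 3.37 without the first lung library. The call of Fras1 was lost without the second cTEC library or any lung library (adjusted p from 0.0522 to 0.0783).

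Among the 4 collagens that were higher in cTEC, Col18a1, a heparan sulfate collagen of basement membranes, had 577, 477 and 535 CPM in the cTEC libraries, against 31.8, 25.98 and 19.5 CPM in the lung libraries (log2 fold change 4.36 ± 0.39, adjusted p = 2.80e-07). Col7a1, the anchoring fibril of stratified epithelium, averaged 85.04 ± 6.28 CPM in cTEC, against 10.2 ± 8.67 CPM in lung (log2 fold change 3.06 ± 0.57, adjusted p = 3.15e-04), with a log2 fold change of 3.98 without the first lung library, and Col16a1 and Col6a1 had log2 fold changes of 1.15 and 1.45. Levels of Col18a1 elsewhere were 242 CPM in mTEC, 193 CPM in skin and 6.39 CPM in colon, so that all 3 groups of the cTEC kit were above both groups of the lung kit.

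Interstitial matrix proteins were mostly lower, 18 of 33 against 6 higher, 72.7% called beside 59.5% of all genes. Tnc, tenascin C, was among the higher. It had 1772, 1488 and 1737 CPM in the cTEC libraries, against 19.99, 14.7 and 18.1 CPM in the lung libraries (log2 fold change 6.57 ± 0.65, adjusted p = 9.25e-07), with 1109 CPM in mTEC, 51.4 CPM in skin and 13.2 CPM in colon. Thbs2 had 82.3, 63.1 and 80.6 CPM in the cTEC libraries, against 1.11, 0.347 and 0.557 CPM in the lung libraries (log2 fold change 6.81 ± 0.37, adjusted p = 2.26e-09), while the related Thbs1 and Thbs3 had log2 fold changes of -2.67 and -4.77. Fbln5 and Eln, an assembly protein of elastic fibers and elastin itself, had log2 fold changes of -4.54 and -3.99. Matn4, Mfap4 and Tnxb had log2 fold changes of -4.83, -4.94 and -6.19. Fn1, fibronectin, averaged 415 ± 58.8 CPM in cTEC, against 225 ± 22.3 CPM in lung and did not pass the test (log2 fold change 0.88 ± 0.53, adjusted p = 0.166).

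Proteases and inhibitors of the matrix went both ways, 6 higher and 12 lower of 28, 64.3% called beside 59.5% of all genes. Mmp9, a gelatinase, had 137, 118 and 164 CPM in the cTEC libraries, against 0, 0.145 and 0 CPM in the lung libraries (log2 fold change 11.29 ± 0.66, adjusted p = 4.63e-09), and mTEC averaged 218 CPM. Plau, the urokinase, averaged 183 ± 45.97 CPM in cTEC, against 7.82 ± 2.72 CPM in lung (log2 fold change 4.55 ± 0.33, adjusted p = 4.07e-08), and its receptor Plaur went the other way with 10.3 CPM in cTEC and 91.3 CPM in lung (log2 fold change -3.14 ± 0.62, adjusted p = 5.26e-04). The inhibitors Timp2 and Timp3 had log2 fold changes of -2.81 and -4.19, and Timp3 had 231, 216 and 224 CPM in the cTEC libraries, against 3669.8, 4374 and 4169 CPM in the lung libraries. Tgm2, the transglutaminase that crosslinks matrix, averaged 107 ± 7.35 CPM in cTEC, against 1389 ± 74.04 CPM in lung (log2 fold change -3.70 ± 0.28, adjusted p = 5.00e-08). The log2 fold change of Mmp9 was 14.53 without the second lung library and that of Plaur -3.77 without the second cTEC library.

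Integrins leaned the same way as the matrix genes. Of 21 integrins and matrix receptors tested 12 were lower and 4 higher, 76.2% called beside 59.5% of all genes. Itgb4 and Itga6, the pair of the hemidesmosome, were higher in cTEC, with 552 ± 27.1 CPM in cTEC, against 90.2 ± 55.6 CPM in lung for Itgb4 (log2 fold change 2.61 ± 0.35, adjusted p = 1.75e-05) and 335 ± 66.2 CPM in cTEC, against 61.8 ± 26.8 CPM in lung for Itga6 (log2 fold change 2.44 ± 0.29, adjusted p = 6.01e-06). The first lung library had the highest Itgb4 of its group, and without it the log2 fold change was 3.22. Itgb6, the epithelial chain that activates latent TGF-beta, had 4.05, 1.56 and 1.85 CPM in the cTEC libraries, against 532, 719.9 and 672 CPM in the lung libraries (log2 fold change -7.99 ± 0.36, adjusted p = 4.97e-10). Itgb1, the chain shared by most matrix integrins, averaged 240.1 ± 25.3 CPM in cTEC, against 1439 ± 78.6 CPM in lung (log2 fold change -2.58 ± 0.15, adjusted p = 4.03e-09), and Itga3, Itga8 and Itga9 had log2 fold changes of -2.57, -3.08 and -5.67. Itgb3, a chain of vitronectin receptors, averaged 0.989 ± 0.505 CPM in cTEC, against 168 ± 9.13 CPM in lung (log2 fold change -7.38 ± 0.65, adjusted p = 2.62e-07).

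Endothelial and fibroblast markers were 11 of 12 and 9 of 12 lower in cTEC, as given above, and they share the direction of most matrix genes. In the lung libraries the defining genes Pecam1, Cdh5 and Kdr averaged 34.5, 41.7 and 26.1 CPM, Pdgfra 90.6 CPM and Dcn 164 CPM. Levels of Col4a3 and Sparc in the same libraries averaged 3038 and 7525 CPM. The part of these cells in the matrix values was not tested.

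**Figure D4:**
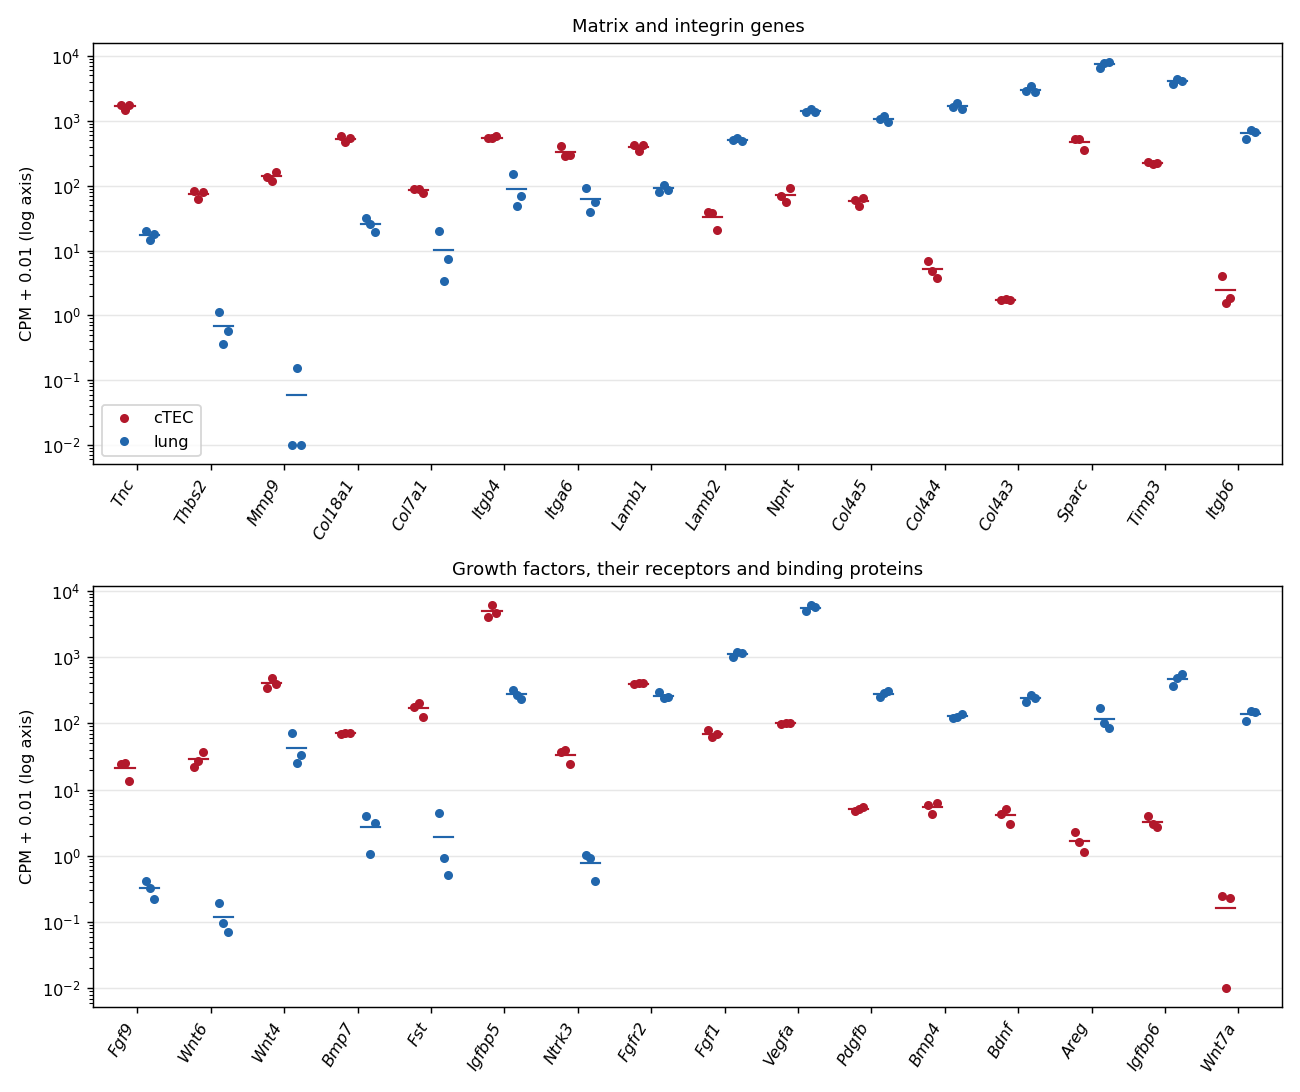
CPM of matrix and integrin genes (top) and of growth factors, receptors and binding proteins (bottom) in each library, on log axes with 0.01 added. Points are libraries, lines are means of 3, and cTEC stands left of lung. Genes at the left of each panel were higher in cTEC, from Tnc at 1666 CPM in cTEC and 17.6 CPM in lung, and those at the right lower, to Wnt7a at 0.154 CPM in cTEC and 136 CPM in lung.

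Growth factor genes went both ways. Of 22 angiogenic factors and receptors tested 12 were lower and 7 higher in cTEC, 86.4% called beside 59.5% of all genes. Vegfa, the main growth factor of blood vessels (chr17:46016993-46032369, minus strand), had 96.2, 102 and 100.3 CPM in the cTEC libraries, against 4939, 6063 and 5728 CPM in the lung libraries (log2 fold change -5.81 ± 0.29, adjusted p = 1.32e-09). Pdgfb and Pdgfa, ligands for mesenchymal cells, averaged 5.09 CPM in cTEC and 278 CPM in lung for Pdgfb (log2 fold change -5.77 ± 0.34, adjusted p = 4.68e-09) and 264 ± 35.4 CPM in cTEC, against 701 ± 87.8 CPM in lung for Pdgfa (log2 fold change -1.41 ± 0.22, adjusted p = 6.15e-05). Pgf, Pdgfc, Pdgfd, Vegfb and Vegfc, relatives of the same family, were higher in cTEC with log2 fold changes of 3.70, 3.13, 2.03, 1.15 and 1.63. That of Pdgfc was 4.34 without the first lung library and that of Pgf 3.04 without the second cTEC library. Vegfa averaged 82.4 CPM in mTEC, 54.4 CPM in skin and 126 CPM in colon, and lung lay above every other group. The receptors Kdr, Flt1, Tek and Tie1 were lower together with the endothelial markers, of which they are part.

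FGF signals separated by ligand. Of 23 ligands, receptors and regulators tested 8 were higher and 11 lower, 82.6% called beside 59.5% of all genes. Fgf1 had 79.4, 61.8 and 68.4 CPM in the cTEC libraries, against 1006, 1179 and 1131 CPM in the lung libraries (log2 fold change -3.98 ± 0.22, adjusted p = 2.47e-09). Fgf9 had 23.9, 25.3 and 13.7 CPM in the cTEC libraries, against 0.4, 0.318 and 0.217 CPM in the lung libraries (log2 fold change 6.05 ± 0.74, adjusted p = 7.28e-06), and Fgf21, a metabolic hormone, averaged 8.99 CPM in cTEC with 0 reads in lung, at least 297-fold higher by a floor of 3 reads over the lung libraries. Fgf18, which acts in alveolar growth, averaged 0.478 ± 0.229 CPM in cTEC, against 62.1 ± 4.38 CPM in lung (log2 fold change -7.01 ± 0.71, adjusted p = 1.07e-06). The mesenchymal ligands of thymus and lung growth, Fgf7 and Fgf10, were low in both groups and lower in cTEC, with 0.159 CPM in cTEC and 7.55 CPM in lung for Fgf7 and 0.475 CPM in cTEC and 7.07 CPM in lung for Fgf10. Their receptor Fgfr2 had 387, 402 and 400.5 CPM in the cTEC libraries, against 296, 237 and 248 CPM in the lung libraries (log2 fold change 0.61 ± 0.18, adjusted p = 0.0101), a call that was lost without the second lung library (adjusted p = 0.0519, and between 4.15e-04 and 1 over all alternatives). Fgfr3 averaged 3.33 ± 1.57 CPM in cTEC, against 123 ± 35.96 CPM in lung (log2 fold change -5.20 ± 0.38, adjusted p = 3.88e-08).

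Of 13 EGF family genes tested 6 were lower in cTEC and 2, Egf and Nrg2, higher, 61.5% called beside 59.5% of all genes. With DESeq2, and with 6 libraries in the fit, 4 were higher. Hbegf averaged 35.4 ± 24.03 CPM in cTEC, against 608 ± 29.1 CPM in lung (log2 fold change -4.10 ± 0.56, adjusted p = 1.98e-05), Areg, amphiregulin, 1.66 ± 0.56 CPM in cTEC, against 117 ± 43.6 CPM in lung (log2 fold change -6.13 ± 0.34, adjusted p = 2.52e-09) and Tgfa 3.65 ± 0.715 CPM in cTEC, against 112 ± 5.08 CPM in lung (log2 fold change -4.93 ± 0.19, adjusted p = 1.42e-10). Their receptor Egfr with 219 CPM in cTEC and 181 CPM in lung did not pass the test, while Erbb3, a receptor of neuregulins, had a log2 fold change of -3.83. The call of Nrg2 was lost without the second library of either group (adjusted p = 0.0727 for cTEC and 0.0736 for lung, and between 0.00247 and 0.213 over all alternatives).

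WNT genes went both ways. Of 40 genes tested 13 were higher and 16 lower, 72.5% called beside 59.5% of all genes. Wnt4 had 338, 483 and 384 CPM in the cTEC libraries, against 71.1, 24.8 and 32.99 CPM in the lung libraries (log2 fold change 3.23 ± 0.38, adjusted p = 5.28e-06), and Wnt6 had 21.6, 27.2 and 36.4 CPM in the cTEC libraries, against 0.185, 0.0868 and 0.0619 CPM in the lung libraries (log2 fold change 7.93 ± 0.49, adjusted p = 8.65e-09). Wnt7a had 0.238, 0 and 0.224 CPM in the cTEC libraries, against 108, 153 and 147 CPM in the lung libraries (log2 fold change -9.70 ± 0.72, adjusted p = 1.86e-07), and Wnt3a and Wnt10b had log2 fold changes of -5.17 and -5.83. Among the inhibitors, Sfrp1 averaged 259.6 ± 8.19 CPM in cTEC, against 10.1 ± 1.9 CPM in lung (log2 fold change 4.68 ± 0.21, adjusted p = 5.36e-10), whereas Wif1 had 0 reads in cTEC and 21.2 CPM in lung, at least 402-fold lower by the floor of 3 reads over the cTEC libraries. The receptors Fzd10 and Lgr4 had log2 fold changes of 4.74 and 3.14, and the target Axin2 averaged 16.6 ± 1.58 CPM in cTEC, against 5.1 ± 0.899 CPM in lung (log2 fold change 1.70 ± 0.26, adjusted p = 5.03e-05).

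TGF-beta and BMP genes also went both ways, with 9 higher and 13 lower of 32, 68.75% called beside 59.5% of all genes. Bmp7 had 67.97, 70.1 and 72.2 CPM in the cTEC libraries, against 3.97, 1.04 and 3.16 CPM in the lung libraries (log2 fold change 4.69 ± 0.35, adjusted p = 5.03e-08), while Bmp4 had 5.9, 4.23 and 6.22 CPM in the cTEC libraries, against 122, 124 and 139 CPM in the lung libraries (log2 fold change -4.55 ± 0.30, adjusted p = 1.72e-08). Fst, follistatin, which binds activins, had 176, 203 and 126 CPM in the cTEC libraries, against 4.4, 0.926 and 0.495 CPM in the lung libraries (log2 fold change 6.44 ± 0.59, adjusted p = 4.06e-07), with a log2 fold change of 7.86 without the first lung library, and the related Fstl3 averaged 5.67 ± 1.23 CPM in cTEC, against 158 ± 16.1 CPM in lung (log2 fold change -4.80 ± 0.24, adjusted p = 1.27e-09). Tgfb2, a ligand, had a log2 fold change of -4.33. Grem1, a BMP inhibitor, averaged 6.58 CPM in cTEC with 0 reads in lung, at least 223-fold higher. The receptor Tgfbr2 averaged 124 ± 6.5 CPM in cTEC, against 826 ± 74.6 CPM in lung (log2 fold change -2.73 ± 0.21, adjusted p = 5.50e-08), and Tgfbr3, the coreceptor betaglycan, 213 ± 26.9 CPM in cTEC, against 32.7 ± 3.03 CPM in lung (log2 fold change 2.70 ± 0.27, adjusted p = 1.11e-06).

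IGF-binding proteins parted as well. Of 14 IGF family genes tested 5 were higher and 7 lower, 85.7% called beside 59.5% of all genes. Igfbp5 had 4016, 6010.4 and 4589 CPM in the cTEC libraries, against 321, 272 and 229 CPM in the lung libraries (log2 fold change 4.15 ± 0.65, adjusted p = 7.77e-05), and Igfbp4 averaged 362 ± 80.96 CPM in cTEC, against 37.1 ± 13.04 CPM in lung (log2 fold change 3.29 ± 0.47, adjusted p = 3.28e-05). Igfbp6 had 3.95, 3.01 and 2.69 CPM in the cTEC libraries, against 369.5, 479 and 549.7 CPM in the lung libraries (log2 fold change -7.17 ± 0.64, adjusted p = 3.13e-07), and Igfbp7 averaged 177 ± 23.5 CPM in cTEC, against 1563 ± 198 CPM in lung (log2 fold change -3.14 ± 0.29, adjusted p = 4.19e-07). The ligands Igf1 and Igf2 were low, with 17.2 CPM in cTEC and 8.48 CPM in lung for Igf1 and 3.86 CPM in cTEC and 5.26 CPM in lung for Igf2, and did not pass the test.

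Of 25 hedgehog, HGF, neurotrophin and related genes tested 8 were higher and 11 lower, 76% called beside 59.5% of all genes. Bdnf, the brain-derived neurotrophic factor, had 4.19, 5.13 and 3.02 CPM in the cTEC libraries, against 208, 263 and 245 CPM in the lung libraries (log2 fold change -5.86 ± 0.23, adjusted p = 1.83e-10), with 6.85 CPM in mTEC, 1.32 CPM in skin and 0.193 CPM in colon. Ntrk3, the receptor of neurotrophin 3, averaged 33.5 ± 8.35 CPM in cTEC, against 0.781 ± 0.331 CPM in lung (log2 fold change 5.41 ± 0.54, adjusted p = 1.01e-06). Gdnf had a log2 fold change of -3.56, and Ccn2, a matricellular factor, averaged 33.4 ± 5.91 CPM in cTEC, against 1213 ± 279 CPM in lung (log2 fold change -5.18 ± 0.34, adjusted p = 1.44e-08). Shh had 3 reads over the cTEC libraries and averaged 14.6 CPM in lung, and the ratio of lung to cTEC was 277-fold (95% counting interval 94.7 to 1347). The hedgehog mediators Gli2 and Gli3 were higher in cTEC with log2 fold changes of 3.25 and 2.68, and the targets Ptch1 and Gli1 lower with log2 fold changes of -2.50 and -4.09. The log2 fold change of Gli3 was 3.30 without the first lung library and that of Gli1 -6.84 without the first cTEC library.

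In 4 of 5 groups of immune receptors more genes were higher in cTEC than lower. Of 41 cytokine receptors tested 19 were higher and 13 lower, of 27 innate sensors 12 and 5, of 17 chemokine receptors 8 and 3 and of 21 TNF receptor genes 10 and 2. Fc, lectin and scavenger receptors had 4 higher and 6 lower of 19. Their call rates of 52.6% to 78.0% lay on both sides of the 59.5% of all genes.

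Lifr, the receptor of leukemia inhibitory factor, was among the cytokine receptors higher in cTEC. It lies at chr15:7090614-7197489, plus strand and had 653, 554 and 856 CPM in the cTEC libraries, against 26.4, 20.7 and 17.1 CPM in the lung libraries (log2 fold change 5.01 ± 0.33, adjusted p = 1.58e-08). Osmr, which pairs with the same signal chain, averaged 225 ± 56.6 CPM in cTEC, against 65.8 ± 8.37 CPM in lung (log2 fold change 1.77 ± 0.36, adjusted p = 6.31e-04), while the chain itself, Il6st, with 381 CPM in cTEC and 412 CPM in lung, did not pass the test. Il15ra, which presents interleukin 15, averaged 80.7 ± 1.91 CPM in cTEC, against 6.65 ± 0.91 CPM in lung (log2 fold change 3.60 ± 0.26, adjusted p = 3.31e-08). Il1r2, a decoy receptor, had a log2 fold change of 4.81, Il13ra2, another decoy, a log2 fold change of 6.48, and Crlf2, a receptor chain for TSLP, a log2 fold change of 3.49. Il2rg and Il7r, which thymocytes express too, averaged 10.3 and 0.964 CPM in cTEC and 1.29 and 0.158 CPM in lung. The call of Il7r was lost with the replicate block and without the first or the third library of either group (adjusted p from 0.0529 to 0.0931).

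Il18r1 and Csf1r were among the cytokine receptors lower in cTEC. Il18r1, the binding chain of the interleukin 18 receptor (chr1:40465552-40500854, plus strand), had 23.4, 19.3 and 14.2 CPM in the cTEC libraries, against 553, 590.2 and 593 CPM in the lung libraries (log2 fold change -4.93 ± 0.29, adjusted p = 4.01e-09). Csf1r, the receptor that macrophages depend on, had 2.76, 1.95 and 5.66 CPM in the cTEC libraries, against 477, 591 and 549.6 CPM in the lung libraries (log2 fold change -7.29 ± 0.52, adjusted p = 3.39e-08). Every cTEC library was far below every lung library for both genes. Levels elsewhere were 6.88 CPM in mTEC, 5.97 CPM in skin and 1.03 CPM in colon for Csf1r and 76.3 CPM in mTEC, 10.2 CPM in skin and 0.104 CPM in colon for Il18r1. In the lung libraries the macrophage genes Adgre1, Marco, Siglecf and Fcgr1 averaged 0.965, 0.45, 0.739 and 0.158 CPM. Chil3, another macrophage gene, was lower in cTEC, with a log2 fold change of -2.35. Of the 22 myeloid genes tested 4 were lower in cTEC and 6 higher. The part of macrophages in the Csf1r values was not tested. Lepr, the leptin receptor, averaged 0.138 ± 0.121 CPM in cTEC, against 17.9 ± 2.72 CPM in lung (log2 fold change -6.94 ± 1.07, adjusted p = 6.52e-05), and the interferon lambda receptor Ifnlr1 33.6 ± 8.24 CPM in cTEC, against 84.2 ± 10.8 CPM in lung (log2 fold change -1.33 ± 0.27, adjusted p = 7.03e-04).

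Some genes of nucleic acid sensing were higher in cTEC, while the RNA sensors Ddx58, Ifih1 and Tlr3, with log2 fold changes of 0.33, 0.43 and -0.51, did not pass the test. Tmem173, the STING adaptor, had 63.4, 67.6 and 32.8 CPM in the cTEC libraries, against 6.58, 5.87 and 6.53 CPM in the lung libraries (log2 fold change 3.11 ± 0.27, adjusted p = 2.59e-07), and Dhx58, a regulator of RNA sensing, had 71.5, 92.8 and 55.3 CPM in the cTEC libraries, against 2.49, 3.62 and 3.53 CPM in the lung libraries (log2 fold change 4.51 ± 0.32, adjusted p = 3.16e-08). Myd88, the adaptor of most Toll-like receptors, averaged 165 ± 78.2 CPM in cTEC, against 78.6 ± 3.47 CPM in lung (log2 fold change 1.07 ± 0.32, adjusted p = 0.01), a call that was lost without the second cTEC library (adjusted p = 0.0872, and between 0.00135 and 0.387 over all alternatives). A pair of Toll-like receptors for bacterial products was lower. Tlr5, the flagellin receptor, averaged 4.98 ± 1.71 CPM in cTEC, against 46.4 ± 3.87 CPM in lung (log2 fold change -3.22 ± 0.34, adjusted p = 1.71e-06), and Tlr2, for lipoproteins, 13.5 ± 4.02 CPM in cTEC, against 41.1 ± 12.4 CPM in lung (log2 fold change -1.60 ± 0.36, adjusted p = 0.00152). Ly96, the partner of TLR4, had a log2 fold change of -1.35, while Tlr4 itself with 12.4 CPM in cTEC and 6.56 CPM in lung did not pass the test. Nlrp3 and Clec7a completed the 5 that were lower, and without the second lung library 3 genes of the list were called lower. The call of Nlrp3 was lost without the second or the third cTEC or the second lung library (adjusted p from 0.0691 to 0.135). That of Clec7a was lost without the second or the third library of either group and with other scalings, filters and counts (adjusted p from 0.0521 to 0.283).

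Ackr4, an atypical receptor that removes CCL19, CCL21 and CCL25, was higher in cTEC. It lies at chr9:104084157-104126933, minus strand and had 367, 274 and 389 CPM in the cTEC libraries, against 3.32, 0.926 and 1.83 CPM in the lung libraries (log2 fold change 7.41 ± 0.53, adjusted p = 3.49e-08), with 26.04 CPM in mTEC, 69.4 CPM in skin and 1.12 CPM in colon. Ccr9, Ccr7 and Ccr4, receptors of thymocytes, averaged 7.93, 11.3 and 3.62 CPM in cTEC and 0.283, 0.417 and 0 CPM in lung, beside thymocyte genes such as Cd4 at 10.2 CPM in cTEC and 0.113 CPM in lung. The part of thymocytes in these values was not tested. The 3 lower genes were Ccr1, Ackr2 and Ccrl2. The call of Ccr1 was lost with expected counts, with the replicate block and without any library but the first of cTEC (adjusted p from 0.0517 to 0.119). The call of Ccrl2 did not hold with DESeq2 size factors (adjusted p = 0.0555, and between 0.00591 and 0.288 over all alternatives), and 1 of the 3 lower genes was left without the third cTEC library or the second or the third lung library.

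In the TNF receptor family Tnfrsf8, CD30, had 19.5, 13.5 and 12.8 CPM in the cTEC libraries, against 0.0308, 0.0579 and 0.0619 CPM in the lung libraries (log2 fold change 8.10 ± 0.66, adjusted p = 1.14e-07). Tnfrsf11a, the receptor RANK of medullary growth, averaged 19.4 ± 3.69 CPM in cTEC, against 4.22 ± 1.13 CPM in lung (log2 fold change 2.20 ± 0.24, adjusted p = 2.02e-06), and Cd40 27.3 ± 11.2 CPM in cTEC, against 3.6 ± 1.5 CPM in lung (log2 fold change 2.92 ± 0.48, adjusted p = 1.08e-04). Tnfrsf14 and Edar had log2 fold changes of 3.46 and 2.66. The 2 that were lower, Tnfrsf12a and Tnfrsf4, lost their calls in part when a library was left out, with 1 left without the first or second cTEC library and 0 without the third library of either group. Among scavenger and lectin receptors, Ly75, the cortical antigen DEC-205, averaged 313 ± 143 CPM in cTEC, against 28.4 ± 1.54 CPM in lung (log2 fold change 3.46 ± 0.39, adjusted p = 3.24e-06), and Scara3 28.1 ± 10.8 CPM in cTEC, against 2.87 ± 1.46 CPM in lung (log2 fold change 3.29 ± 0.57, adjusted p = 1.77e-04). Mrc2, the collagen receptor uPARAP, averaged 4.43 ± 0.662 CPM in cTEC, against 304 ± 40.99 CPM in lung (log2 fold change -6.09 ± 0.44, adjusted p = 3.35e-08), and Scarf1 and Colec12 had log2 fold changes of -5.48 and -4.43.

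Complement genes were divided, 7 higher and 8 lower of 21, 71.4% called beside 59.5% of all genes. C3, the hub of the cascade, had 1582, 1806 and 1249.5 CPM in the cTEC libraries, against 239, 473 and 413 CPM in the lung libraries (log2 fold change 2.04 ± 0.46, adjusted p = 0.00161). Hc, complement C5, had 0.762, 0.613 and 1.4 CPM in the cTEC libraries, against 418, 261 and 208 CPM in the lung libraries (log2 fold change -8.32 ± 0.59, adjusted p = 3.11e-08), and the surface regulators Cd55 and Cd59a had log2 fold changes of -4.06 and -2.84. Clu, a soluble regulator, averaged 529 ± 169.8 CPM in cTEC, against 240.0 ± 32.3 CPM in lung (log2 fold change 1.14 ± 0.23, adjusted p = 7.31e-04).

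Chemokines were mostly higher in cTEC. Of 30 ligands tested 18 were higher and 5 lower, 76.7% called beside 59.5% of all genes, with a median of 2.80. Beside Ccl25, Cxcl12, which holds precursors in the cortex, had 901, 865 and 1567 CPM in the cTEC libraries, against 14.5, 21.7 and 21.8 CPM in the lung libraries (log2 fold change 5.85 ± 0.47, adjusted p = 9.49e-08). Cxcl10, an interferon-induced ligand, had 1586, 2830.3 and 669 CPM in the cTEC libraries, against 23.3, 55.4 and 33.7 CPM in the lung libraries (log2 fold change 5.50 ± 0.59, adjusted p = 1.94e-06). Cx3cl1 averaged 449 ± 79.2 CPM in cTEC, against 30.6 ± 9.95 CPM in lung (log2 fold change 3.88 ± 0.27, adjusted p = 2.48e-08), and Ccl11 and Cxcl9 had log2 fold changes of 6.18 and 6.44. The 5 lower were Cxcl15, Cxcl17, Cxcl14, Cxcl16 and Ccl6. Cxcl15, lungkine, had 0.428, 0.223 and 0.448 CPM in the cTEC libraries, against 858, 514 and 367 CPM in the lung libraries (log2 fold change -10.60 ± 0.86, adjusted p = 1.11e-07), and Cxcl16, a membrane-bound ligand, averaged 112 ± 31.1 CPM in cTEC, against 484 ± 78.7 CPM in lung (log2 fold change -2.12 ± 0.27, adjusted p = 1.18e-05). The log2 fold change of Cxcl10 was 4.90 without the second cTEC library, and that of Cxcl9 7.54 without the second lung library.

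MHC class I genes, the theme of the series, were higher in cTEC in 12 of 17 cases and lower in 2, with a median of 1.95. This is 82.4% called, beside 59.5% of all genes. H2-K1 (chr17:33996017-34000347, minus strand) had 3759.6, 4343 and 3765 CPM in the cTEC libraries, against 499, 647 and 572 CPM in the lung libraries (log2 fold change 2.79 ± 0.26, adjusted p = 4.16e-07), and B2m, the light chain, had 3385, 3962 and 2695 CPM in the cTEC libraries, against 864, 1107 and 1100.2 CPM in the lung libraries (log2 fold change 1.71 ± 0.24, adjusted p = 2.24e-05). The groups did not overlap for either, but reads of the H2 genes can be split among near-identical copies. Nlrc5, the activator of class I transcription, had 61.4, 77.1 and 66.4 CPM in the cTEC libraries, against 1.01, 2.89 and 1.49 CPM in the lung libraries (log2 fold change 5.24 ± 0.34, adjusted p = 1.46e-08). Tap1, a chain of the peptide transporter, averaged 375 ± 45.1 CPM in cTEC, against 29.6 ± 3.7 CPM in lung (log2 fold change 3.67 ± 0.23, adjusted p = 1.03e-08), and Psmb9 and Psmb10, subunits of the immunoproteasome, had log2 fold changes of 4.98 and 3.85. The 2 lower genes were Canx and Pdia3, chaperones of general use, with log2 fold changes of -1.43 and -0.48. Pdia3 was not called with DESeq2 size factors, with upper-quartile scaling or when any library but the first of lung was left out (adjusted p from 0.0622 to 0.172, and between 0.0124 and 1 over all alternatives). H2-K1 averaged 4244 CPM in mTEC, 2174 CPM in skin and 486 CPM in colon, and Nlrc5 121 CPM in mTEC, 177 CPM in skin and 1.03 CPM in colon. For H2-K1, Nlrc5, Tap1, Tap2 and Psmb9 all 9 libraries of the cTEC kit lay above all 6 of the lung kit.

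MHC class II separated the groups further. All 12 genes tested were higher in cTEC, with a median of 5.25, while 30.9% of all genes were higher. Cd74, the invariant chain, had 7845, 10496 and 9638 CPM in the cTEC libraries, against 545, 369.8 and 286 CPM in the lung libraries (log2 fold change 4.54 ± 0.38, adjusted p = 1.42e-07). H2-Ab1 had 3448, 4891 and 4218 CPM in the cTEC libraries, against 71.01, 46.7 and 31.1 CPM in the lung libraries (log2 fold change 6.40 ± 0.35, adjusted p = 2.33e-09), and H2-Oa, a regulator of peptide loading, had 79.97, 74.8 and 117 CPM in the cTEC libraries, against 0.0615, 0.174 and 0 CPM in the lung libraries (log2 fold change 10.04 ± 0.61, adjusted p = 5.89e-09), with a log2 fold change of 11.25 without the second lung library. Ciita, the activator of class II transcription, averaged 147 ± 37.7 CPM in cTEC, against 2.74 ± 1.44 CPM in lung (log2 fold change 5.74 ± 0.46, adjusted p = 9.58e-08). In lung the first library was the highest for Cd74 and H2-Ab1, as it was for Sftpc. Cd74 averaged 8856 CPM in mTEC, 61.9 CPM in skin and 20.97 CPM in colon, so that lung lay above colon, made with its own kit, and below both thymic groups. The macrophage and dendritic cell genes Itgax, Adgre1 and Tyrobp averaged 0.764, 0.467 and 0.857 CPM in cTEC and 2.65, 0.965 and 1.99 CPM in lung. Of all 22 myeloid genes tested, however, 6 were higher in cTEC and 4 lower. B cell genes summed to 28.7 to 92.96 CPM in cTEC, against 3.25 to 5.84 CPM in lung. The part of such cells in the class II values was not tested.

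**Figure D5:**
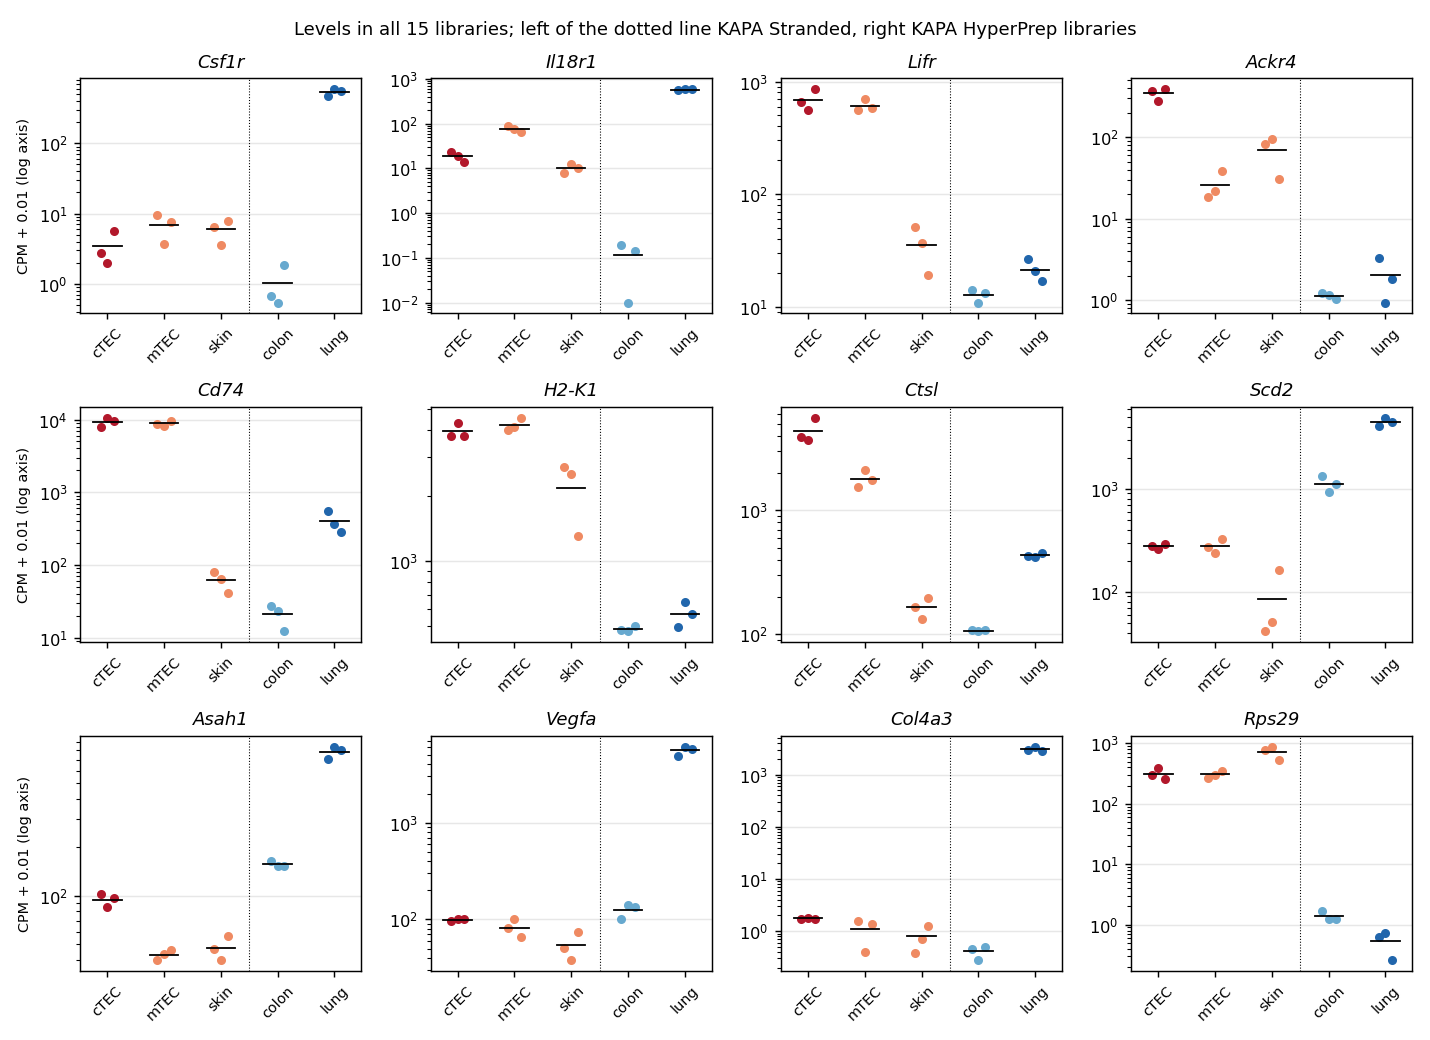
CPM of 12 genes in all 15 libraries, on log axes with 0.01 added. Points are libraries, lines are means of 3, and the dotted line separates the kit of cTEC, mTEC and skin from that of colon and lung. Ackr4, H2-K1 and Rps29 are higher, and Scd2 and Asah1 lower, in every library left of the line, and Rps29 has 257 to 873 CPM in 9 libraries and 0.248 to 1.70 CPM in 6, while in the other panels a group on either side breaks the split.

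Features that moved with the kit were measured across the 15 libraries. Of the 5899 genes higher in cTEC, 1088 had all 9 libraries of the cTEC kit above all 6 of the lung kit, 18.4%, and of the 5467 lower genes 1589 had them all below, 29.1%. Among all 19107 genes tested, called or not, 2875 had such a split in either direction, 15.05%. This last share counts both directions together, while each of the others counts a single direction. Among the genes described so far the split held, higher, for Ache, Ackr4, Apoe, Atp6v0c, Bmp7, Ccl11, Ccl21a, Ccr4, Col18a1, Crlf2, Cstb, Cxcl12, Cxcl9, Fabp5, Foxn1, Frem2, Fst, Fxyd2, Fzd10, Gli3, H2-K1, Igfbp4, Ighm, Il15ra, Il1r2, Il2rg, Itgb4, Lama1, Mdga1, Mmp9, Nlrc5, Pdgfc, Plau, Prss16, Psmb9, Rps29, Scara3, Sfrp1, Tap1, Tap2, Tgfbr3, Thbs2, Trp63, Wnt4 and Wnt6. It held, lower, for Abca3, Acadl, Acadm, Ap3b1, Ap3m1, Asah1, Canx, Cdh1, Chka, Chpt1, Ebp, Elovl5, Foxa1, Foxa2, Gata6, Hexa, Ids, Igf2r, Itgb1, Lpin2, Pcyt1a, Pdia3, Plaur, Prdx6, Scd2, Sgsh, Sort1 and Tlr2. Such a split is also what a gene shared by thymus and skin, or by lung and colon, would show. Rps29, a ribosomal protein gene, had 297, 396 and 257 CPM in the cTEC libraries, against 0.615, 0.723 and 0.248 CPM in the lung libraries (log2 fold change 9.20 ± 0.37, adjusted p = 1.91e-10), with 308 CPM in mTEC, 730.4 CPM in skin and 1.39 CPM in colon. These are uniquely placed reads, and from expected counts its log2 fold change was 1.60. Of 80 cytoplasmic ribosomal protein genes tested 77 were higher in cTEC and 0 lower, with a median of 2.35, and the median was 1.23 from expected counts and 1.77 with an offset for gene length. Within a kit, the median of these genes was -0.08 for cTEC against mTEC, -1.13 for cTEC against skin and -1.42 for lung against colon. By edgeR's test 78 of them were lower in cTEC than in skin and 76 lower in lung than in colon, and 0 were called for cTEC against mTEC, where 1 had an unadjusted p under 0.05. Across the kits, cTEC against colon had 47 of them higher and 9 lower. Over all genes cTEC against mTEC called 24.7%, cTEC against skin 56.4%, lung against colon 58.6% and cTEC against colon 65.1% of the genes tested. All 7 protein-coding mitochondrial genes tested were lower in cTEC, with a median of -2.27, and their median was 0.25 for cTEC against mTEC, 0.40 for cTEC against skin and 0.28 for lung against colon. In edgeR's test 0 of the 7 were called between cTEC and mTEC or between cTEC and skin, and 0 had an unadjusted p under 0.05 there. Between lung and colon 1 was higher and 1 lower, and across the kits all 7 were lower in cTEC than in colon, with a median of -2.43.

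Gene length moved with the comparison too. The median log2 fold change was 0.80 for genes of up to 500 bases, 0.64 for the next up to 1000, 0.25 for those up to 2000, -0.05 for those up to 4000 and -0.36 for longer genes. For cTEC against mTEC the first and last of these medians were 0.03 and -0.12, for cTEC against skin -0.17 and 0.16, and for lung against colon -0.30 and 0.15. With an offset for gene length, no named gene changed its direction. What part the kit has in these trends was not tested, since no tissue was made with both kits.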

How the data were processed

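Poly(A) RNA of sorted epithelial cells was sequenced, and the reads were aligned with STAR 2.5.1b and quantified with RSEM 1.2.28 on GRCm38, per the submitters' processing notes. The authors deposited a count table and an RSEM table per library. The deposited counts per gene are uniquely placed reads, and the column of the sense strand was used, which held 14.6 to 18.7 times the reads of the opposite strand. The deposited expected counts and TPM of RSEM served as an alternative and for levels per length. Of 50600 genes 50376 matched GENCODE M21. Between 24.2% and 30.6% of the reads in the table were not assigned to a gene and stayed out of library sizes. These include multiply placed reads, which made up 8.61% to 11.5% of the reads in the cTEC and lung libraries. Samples were grouped by the deposited titles.

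All 15 libraries entered 1 fit with edgeR 4.0.16 in R 4.3.3 (TMM factors, filterByExpr by group, quasi-likelihood F test, Benjamini-Hochberg adjustment over the 19107 genes tested, threshold 0.05). Standard errors were computed from the fold change and the F statistic, and the common biological coefficient of variation was 28.1%. On simulated data the fit called 32 of 100 genes changed 2-fold, 69 of 100 changed 4-fold and 6 unchanged genes. Only 200 genes were changed in the simulation, while 59.5% of genes were called here, so it does not give the sensitivity of this comparison. P-values set a difference against a spread among pools that was estimated from all 15 libraries, not from cTEC and lung alone. A fold against a group with 0 reads is a bound from a floor of 3 reads over the group, and with 1 to 3 reads a ratio with an exact counting interval is given, which covers counting error only. Replicate numbers were not used to pair the libraries, since the labels do not say what they mark.

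The comparison and its 47 gene lists were chosen with earlier results of these data known. Genes are named if they had the 12 largest changes in either direction (protein coding, 50 CPM or more on the higher side, 10 reads or more on the lower side, no overlap), if they were among up to 3 members per list and direction with the smallest p and 5 CPM or more, or if they were set as always named. The following list members fall outside that rule and were chosen after their values were seen: Ackr2, Adgre1, Aire, Axin2, Ccl11, Ccl6, Ccr1, Ccr4, Cd22, Cd4, Cd40, Cd59a, Cdh5, Chka, Chkb, Chpt1, Ciita, Clec7a, Col1a1, Col4a1, Col4a2, Col6a1, Colec12, Cpt1a, Crlf2, Ctsb, Ctsc, Ctss, Cxcl10, Cxcl12, Cxcl16, Cxcl9, Dcn, Ddx58, Edar, Egf, Egfr, Eln, Enpep, Eya1, Fbln5, Fcgr1, Fgf10, Fgf18, Fgf7, Flt1, Fn1, Foxa2, Fras1, Gaa, Gli1, Gli2, Grem1, Hbegf, Hexa, Hoxa3, Ifi30, Ifih1, Ifnlr1, Igf1, Igf2, Il13ra2, Il2rg, Il6st, Il7r, Itga3, Itga8, Itga9, Itgax, Itgb3, Jchain, Kitl, Lama1, Lama3, Lamb3, Lamp1, Lamp2, Lgmn, Lgr4, Lipa, Lpcat1, Marco, Mgll, Nlrp3, Osmr, Pax9, Pcyt2, Pdgfa, Pdgfd, Pecam1, Plaur, Prdx6, Psap, Psmb10, Ptch1, Scd1, Scd2, Scgb1a1, Shh, Siglecf, Slc25a1, Smpd1, Sox2, Sox9, Sparc, Tek, Tfe3, Tfeb, Tgfb2, Tgfbr3, Thbs1, Tie1, Timp2, Tlr3, Tlr4, Tnfrsf4, Trp63, Tyrobp, Vegfb, Vegfc, Wif1 and Wnt4. Alternatives were other scalings (DESeq2 size factors, upper quartile), filters, DESeq2 1.42.0, expected and unstranded counts, a 2-fold threshold, thinning, an offset for gene length, a replicate block and leaving out each library. Some genes are not reported here.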

Additional observations from a re-analysis of the deposited data

How the results depend on the processing

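Of 4499 values of named genes under 18 alternatives, 4420 kept their direction and side of the threshold, 79 lost the call, in 38 genes, and 0 reversed. Of 1746 counts, 1667 stayed within 1.5 times. With a threshold of a 2-fold change 6356 genes were called, 3552 higher and 2804 lower. The counts of higher genes were then 4 for angiogenic factors, 2 for collagens, 4 for complement, 0 for cholesterol, 5 for dissociation genes, 1 for the EGF family, 0 for fatty acid oxidation, 2 for fatty acid synthesis, 5 for the FGF family, 5 for hedgehog and neurotrophin genes, 2 for integrins, 1 for hydrolases, 4 for lysosomal proteases, 1 for lysosomal membrane genes, 0 for the ATPase, 0 for organelle biogenesis and 1 for general epithelial genes. Counts of lower genes were 2 for cholesterol, 0 for fatty acid oxidation, 10 for hydrolases, 8 for lysosomal membrane genes, 5 for the ATPase, 1 for organelle biogenesis, 4 for the IGF family, 2 for innate sensors, 7 for cytokine receptors, 1 for chemokine receptors, 0 for TNF receptors, 1 for MHC class I, 0 for B cell genes and 2 for dissociation genes. With an offset for gene length 1 phospholipid gene was higher and 6 cholesterol genes were lower. With upper-quartile scaling 5 cholesterol genes were higher, and 0 TNF receptors and 1 MHC class I gene were lower. With thinned counts 5 cholesterol genes were higher and 1 MHC class I gene lower. With expected counts 3 oxidation genes and 1 ATPase gene were higher, and 1 chemokine receptor and 0 B cell genes lower. With 6 libraries in the fit 4 EGF family genes and 2 fibroblast genes were higher, and 1 thymocyte gene and 0 B cell genes lower, and with DESeq2 4 EGF family genes were higher. MHC class I had 1 lower gene with DESeq2 size factors, without a filter and with a filter at 1 CPM, where B cell genes had 0. With the replicate block MHC class I had 1 lower gene and B cell genes 0. The correlations of same-numbered libraries, as deviations from their group means, were 0.0447, -0.0127 and 0.00518. The labels do not say whether the numbers mark a shared sort day, which 3 libraries per group cannot settle, and the libraries were treated as unpaired. When each library was left out, the counts of higher genes ranged from 5 to 8 for lysosomal proteases, 5 to 10 for organelle biogenesis and 1 to 2 for the EGF family, and the counts of lower genes from 3 to 5 for innate sensors, 1 to 2 for chemokine receptors, 0 to 2 for TNF receptors, 1 to 2 for MHC class I and 0 to 1 for B cell genes. The causes were not tested, save that a 2-fold threshold calls fewer genes by construction. Depth of 14329113 reads in the smallest cTEC library limits genes near the floor of 3 reads.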

Other observations

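Cell cycle genes were low in both groups and mostly higher in cTEC, 12 of 20 tested against 1 lower. The share called was 65%, beside 59.5% of all genes. Mki67, a marker of dividing cells, averaged 14.9 ± 6.44 CPM in cTEC, against 2.82 ± 0.609 CPM in lung (log2 fold change 2.41 ± 0.50, adjusted p = 7.99e-04), and Top2a, a topoisomerase of mitosis, 12.01 ± 5.28 CPM in cTEC, against 2.42 ± 0.934 CPM in lung (log2 fold change 2.32 ± 0.56, adjusted p = 0.0026). Cdk1, the kinase of mitotic entry, averaged 4.62 ± 1.74 CPM in cTEC, against 0.561 ± 0.14 CPM in lung (log2 fold change 3.03 ± 0.50, adjusted p = 1.26e-04). E2f1, a regulator of entry into S phase, was the 1 lower member, with 1.57, 1.17 and 0.84 CPM in the cTEC libraries, against 40.01, 46.7 and 45.03 CPM in the lung libraries (log2 fold change -5.19 ± 0.41, adjusted p = 8.08e-08). The 20 genes summed to 165 to 242 CPM in cTEC, against 169 to 177 CPM in lung, so the summed levels were close while the members parted. Thymocytes, whose 20 markers summed to 186 to 262 CPM in cTEC, against 13.7 to 17.5 CPM in lung, also divide, and their part in these values was not tested.

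Genes that respond to cell dissociation were abundant in all 6 libraries. Of 18 tested 10 were higher and 4 lower in cTEC, 77.8% called beside 59.5% of all genes. The sums were 38522, 57546 and 25250.2 CPM in cTEC, against 23238, 25176 and 22482 CPM in lung. The second cTEC library was the highest and the third the lowest of their group. Hspa1a, an inducible heat shock protein, had 1033, 1685 and 722 CPM in the cTEC libraries, against 70.7, 68.4 and 86.1 CPM in the lung libraries (log2 fold change 3.93 ± 0.55, adjusted p = 2.46e-05), and Socs3, a feedback inhibitor of cytokine signals, had 1797, 2604 and 969.6 CPM in the cTEC libraries, against 294, 205 and 198 CPM in the lung libraries (log2 fold change 2.94 ± 0.38, adjusted p = 1.28e-05). Fos and Egr1, immediate early genes, had 5263 CPM in cTEC and 3559.9 CPM in lung for Fos and 3968 CPM in cTEC and 2859 CPM in lung for Egr1 and did not pass the test. Nr4a1, an immediate early nuclear receptor, averaged 231 ± 53.7 CPM in cTEC, against 885 ± 166 CPM in lung (log2 fold change -1.94 ± 0.35, adjusted p = 2.36e-04), and Ier3 308 ± 84.6 CPM in cTEC, against 1640.5 ± 368 CPM in lung (log2 fold change -2.42 ± 0.24, adjusted p = 9.43e-07). For Socs3 all 9 libraries of the cTEC kit lay above all 6 of the lung kit. The part of cell handling in the other values was not tested.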
